A study of Drosophila melanogaster with 9 samples.

Results

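Peaks of open chromatin in and around the heterochromatin of cultured Drosophila melanogaster cells were described at 14, 25 and 29 °C. They were taken by position, in 3 sets, from a table of 17175 consensus ATAC-Seq peaks in the coordinates of the dm6 genome build. The pericentromeric set holds 769 peaks: 238 on 2L past position 22000000, 261 on 3L past position 23000000, 175 on 3R before position 4200000 and 95 on X from position 22600000 on. No limit was set on 2R, whose peaks stayed with the rest. The chromosome 4 set holds all 126 peaks of that chromosome and is reported apart, and the Y chromosome set holds 14 peaks. Together these are 909 peaks, and the other 16266 peaks are called the rest below.

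The cells were of the line S2R+, an embryo-derived line with features of hemocytes, the blood cells of the fly. All 9 cultures were first grown at 25 °C for 36 h and then kept for 24 h at 14, 25 or 29 °C, with 3 replicate cultures at each temperature; a given p-value thus measures the spread between cultures of 1 line. The labels give the same plated cell number for all cultures, whereas the methods of the study give a higher one for 14 °C. ATAC-Seq uses the transposase Tn5 to cut and tag DNA that is not protected by nucleosomes, so that a high count in a peak stands for an accessible site. Tagmentation was done at 25 °C for 30 min for every culture, whatever its growth temperature. In such a bulk sample, a site that is open in fewer cells cannot be told apart from one that is cut less often per cell.

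Heterochromatin is the compact part of the genome around the centromeres, rich in transposable elements and satellite repeats and packed with histone H3 methylated at lysine 9 and its reader HP1a. Genes moved next to it are silenced in some cells and not in others, an effect called position-effect variegation, which in flies is known to respond to the temperature of development. A class of genes, among them the ribosomal protein genes RpL5 and RpL15, normally lies inside it and is expressed there. Chromosome 4 is a small autosome with interspersed repeats and HP1a, whose active genes are also bound by its own protein, POF. The Y chromosome is almost wholly heterochromatic and carries a few male fertility genes with very long introns and the repeated Su(Ste) loci, the source of small RNAs against the X-linked Stellate genes.

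Stretches of 6 peaks are shown first, as examples picked by their values. In chromosome 4 and the pericentromeric set, the peak of smallest p between 14 and 29 °C was taken in each direction. Only peaks whose libraries did not overlap were considered for these, and the tallest peak of each set was added. Each is the central 300 bases of its peak on the plus strand, from the RefSeq copy of the dm6 assembly, and capitals mark bases that this assembly masks as repeats. On chromosome 4 they are chr4:1256662-1256961 in an intron of Cadps, chr4:554939-555238 in an intron of Tdg and chr4:508505-508804 in an intron of zfh2.
Cadps intron: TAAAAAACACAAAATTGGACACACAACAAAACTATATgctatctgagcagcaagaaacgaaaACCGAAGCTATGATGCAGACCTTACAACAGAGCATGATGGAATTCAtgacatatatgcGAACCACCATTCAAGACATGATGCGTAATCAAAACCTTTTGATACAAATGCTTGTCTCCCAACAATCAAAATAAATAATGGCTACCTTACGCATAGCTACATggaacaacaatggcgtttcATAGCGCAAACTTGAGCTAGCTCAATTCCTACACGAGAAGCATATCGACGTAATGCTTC
Tdg intron: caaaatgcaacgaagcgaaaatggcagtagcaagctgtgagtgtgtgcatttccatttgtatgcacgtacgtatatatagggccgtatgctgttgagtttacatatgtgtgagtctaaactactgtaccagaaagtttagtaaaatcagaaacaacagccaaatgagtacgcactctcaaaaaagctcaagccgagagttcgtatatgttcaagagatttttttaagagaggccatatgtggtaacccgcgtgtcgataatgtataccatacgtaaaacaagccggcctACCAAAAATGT
zfh2 intron: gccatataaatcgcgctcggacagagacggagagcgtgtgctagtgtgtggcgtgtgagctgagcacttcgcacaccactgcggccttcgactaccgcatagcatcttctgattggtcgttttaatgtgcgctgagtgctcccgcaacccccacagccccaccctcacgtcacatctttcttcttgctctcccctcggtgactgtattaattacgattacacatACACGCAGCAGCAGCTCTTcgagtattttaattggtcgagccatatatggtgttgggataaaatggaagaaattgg

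The pericentromeric stretches are all on 3R: chr3R:4016622-4016921 between genes, with CG42402 the nearest, chr3R:4187299-4187598 at a start of the noncoding gene CR33294, and chr3R:2088302-2088601 in an intron of Myo81F.
3R intergenic: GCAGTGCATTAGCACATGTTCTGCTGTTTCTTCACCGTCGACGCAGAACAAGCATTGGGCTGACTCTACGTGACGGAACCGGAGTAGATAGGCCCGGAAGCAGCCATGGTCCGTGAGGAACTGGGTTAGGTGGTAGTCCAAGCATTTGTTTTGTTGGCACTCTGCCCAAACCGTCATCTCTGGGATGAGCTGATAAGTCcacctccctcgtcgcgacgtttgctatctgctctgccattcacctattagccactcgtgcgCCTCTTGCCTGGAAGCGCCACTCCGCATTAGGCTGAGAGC
CR33294 start: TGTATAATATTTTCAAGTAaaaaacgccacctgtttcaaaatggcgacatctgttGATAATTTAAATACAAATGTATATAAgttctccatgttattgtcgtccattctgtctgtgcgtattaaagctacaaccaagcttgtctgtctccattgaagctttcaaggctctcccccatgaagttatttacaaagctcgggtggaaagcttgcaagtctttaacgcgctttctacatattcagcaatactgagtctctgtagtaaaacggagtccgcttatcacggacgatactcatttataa
Myo81F intron: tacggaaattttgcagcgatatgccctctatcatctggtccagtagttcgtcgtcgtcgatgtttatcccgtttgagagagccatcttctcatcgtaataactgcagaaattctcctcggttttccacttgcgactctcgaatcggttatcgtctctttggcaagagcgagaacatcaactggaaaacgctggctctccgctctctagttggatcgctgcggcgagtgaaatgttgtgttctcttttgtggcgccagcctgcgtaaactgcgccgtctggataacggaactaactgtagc

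Repeat masking separates these stretches. The 3R intergenic stretch is masked over 239 of its 300 bases, and the Cadps stretch over 244, whereas the Tdg stretch has 11 masked bases and the Myo81F stretch has 0. Sequence elsewhere in the assembly matched the 3R intergenic peak 59 times and the Myo81F peak 13 times, over at least 250 bases at 95% identity or more. The other 4 peaks had no such copy.

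The 3 sets differed from the rest in makeup as well as in place. With its arms pooled, the pericentromeric set had sparser peaks, at 65.4 per Mb, than the rest, at 135 per Mb. By arm the density was 157 per Mb on 2L, above that of the rest, 101 on X, 51.1 on 3L and 41.7 on 3R. The Y chromosome had 3.82 per Mb. Only 104 of the 769 pericentromeric peaks, or 13.5%, lay within 500 bp of an annotated gene start, against 47.8% of the rest. On chromosome 4 the share was 57.9%, or 73 of 126, and on the Y it was 0 of 14. An annotated transposable element overlapped 27.8% of chromosome 4 peaks and 20.5% of pericentromeric peaks, against 3.00% of the rest.

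Base composition set chromosome 4 apart, with a median GC content of 35.8% per peak, whereas the pericentromeric set had 44.9%, near the 43.7% of the rest, and the Y set had 52.4%. Uniqueness limits what a count can mean here, since the authors dropped reads that mapped to more than 1 place. In the rest, every 100-base stretch of the peak occurs once in the genome for 98.0% of peaks, but this held for 56.8% of the pericentromeric peaks, 85.7% of those on chromosome 4 and none of the 14 on the Y. A near-identical copy elsewhere was found for 269 pericentromeric peaks, 17 chromosome 4 peaks and all 14 Y peaks, so that counts in the latter may come from other copies.

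Short sequence motifs were counted on both strands of about the central 500 bases of each peak, as letters only. No allowance was made for base composition, which differs between the sets. The CA repeat CACACACA occurred in 2.99% of pericentromeric and 6.35% of chromosome 4 peaks, against 15.8% of all peaks in the table. The letters GGTCACAC, the core of a fly promoter element known as motif 1, were in 1.04% of the pericentromeric and 3.17% of the chromosome 4 peaks, against 4.97% of all peaks. TATAAA, the TATA box, was in 60.3% of the chromosome 4 peaks, against 40.9% of all peaks and 36.9% of the pericentromeric ones. The GAGAGAG repeat, which GAGA factor is known to bind, was found in 9.49% and 6.35% of the pericentromeric and chromosome 4 peaks, against 12.9% of all peaks. TATCGATA, the DNA replication-related element, was in 2.47% and 7.14%, against 4.83%. Shares of AGATAA, which factors of the GATA family bind, were 21.5% and 21.4%, against 25.8%, and those of TTCNNNGAA, the STAT motif, were 9.49% and 16.7%, against 12.7%.

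The libraries held between 3290670 and 10805366 counts in peaks. At these depths the median pericentromeric peak had a mean count of 181, with a counting error of 7.44%, and the median chromosome 4 peak had 238, with 6.48%. Both errors were below the biological coefficient of variation between replicates, which was 22.7%. Libraries also differed in how strongly their tall peaks stood out from their low ones, measured as the SD of the log2 counts over all peaks. This spread was 0.739 and 0.771 for replicates 1 and 3 at 14 °C but 1.06 for replicate 2, it ran from 0.891 to 1.15 at 25 °C, and it was 1.01, 1.32 and 1.04 for replicates 1, 2 and 3 at 29 °C. Replicate 2 at 14 °C stood apart from the other 2 libraries of its temperature in many of the values below. Of the 12 hemocyte markers listed, 9 had a peak at a start, among them srp, Pxn and eater, while Hml, NimC1 and He had none; a start peak was present for 1 of 4 neuronal, 1 of 4 male germline and 0 of 3 muscle markers.

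The share of the counts in pericentromeric peaks had a higher mean at 14 °C than at 29 °C, but the libraries of the temperatures overlapped. Within each replicate number it was larger at 14 than at 29 °C, though the labels do not state that equal numbers are pairs. The summed share of the 769 peaks was 6.04, 3.17 and 5.13% of all counts in peaks at 14 °C, 4.11, 4.01 and 2.93% at 25 °C and 3.71, 2.44 and 3.91% at 29 °C, for replicates 1, 2 and 3. Means were 4.78% ± 1.47 (SD, n = 3), 3.69% ± 0.655 and 3.35% ± 0.795. The ratio of the means at 14 and 29 °C was 1.43, and the ratios within replicates 1, 2 and 3 were 1.63, 1.30 and 1.31. Replicate 2 was the lowest library at both of these temperatures, and at 14 °C it lay below replicates 1 and 3 at 29 °C.

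On chromosome 4 the share overlapped between temperatures. The 126 peaks took 0.528, 0.604 and 0.542% of the counts at 14 °C, 0.534, 0.621 and 0.616% at 25 °C and 0.582, 0.578 and 0.551% at 29 °C. The ratio of means at 14 and 29 °C was 0.979. The pericentromeric shares lay in nearly the reverse order of the libraries' spreads of log2 counts: the library with the lowest spread, replicate 1 at 14 °C, had the highest share, and the one with the highest spread, replicate 2 at 29 °C, had the lowest. The part of this spread in the pericentromeric difference was not tested.

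**Figure D1:**
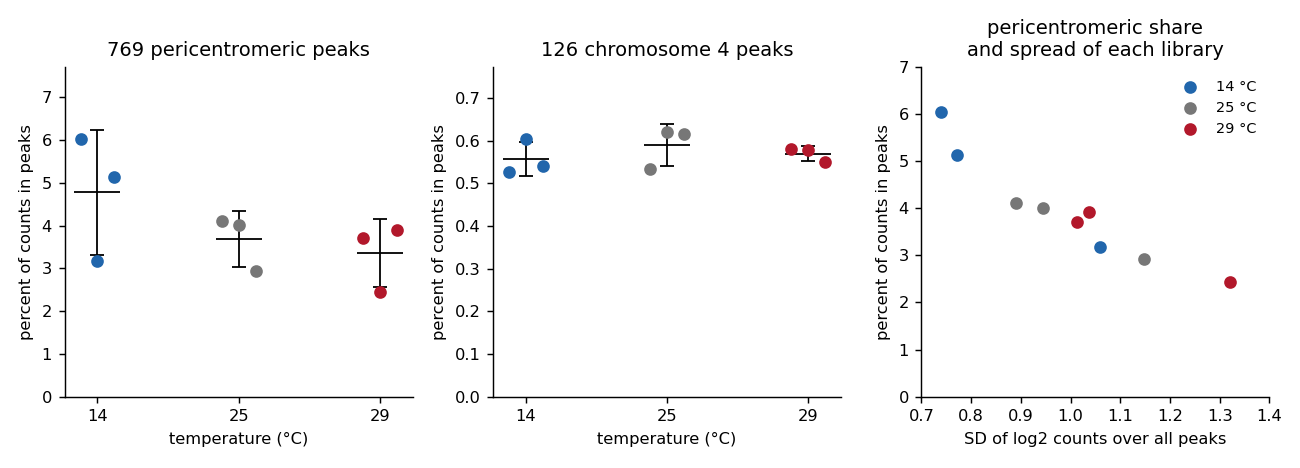
Share of all counts in peaks, in percent, that fell in the 769 pericentromeric peaks (left) and the 126 chromosome 4 peaks (middle) in each library (points), with the mean and SD of 3 libraries per temperature (bars), and the pericentromeric share against the SD of log2 counts of each library (right). The pericentromeric share ran from 2.44% to 6.04% and was lower in libraries with a larger spread, while the chromosome 4 share stayed between 0.528% and 0.621%.

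Between 14 and 29 °C most pericentromeric peaks lay on the side of 14 °C, but only 1 passed the test. The median log2 fold change (14 over 29 °C) over the 769 peaks was 0.71, and 85.7% of them were above 0, against a median of 0.02 and 50.8% above 0 over all 17175 peaks. With edgeR's quasi-likelihood test and Benjamini-Hochberg adjustment over all peaks, 1 pericentromeric peak was called higher at 14 °C and 0 lower. Of all peaks, 0.559% were called higher and 0.664% lower. An unadjusted p under 0.05 was reached by 300 pericentromeric peaks on the higher side and 11 on the lower, or 39.0% and 1.43%, where all peaks had 20.1% and 13.2%. In 139 pericentromeric peaks, or 18.1%, every 14 °C library lay above every 29 °C library, against 12.8% of all peaks, and in 28, or 3.64%, every one lay below, against 15.1%.

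The count of calls hung on replicate 2 at 14 °C and on the pairing of replicates. Without that library, 446 pericentromeric peaks were called higher and 30 lower at 14 °C, where 26.3% and 23.4% of all peaks were called. With the replicate number as a block, 12 were called higher and 0 lower, against 1.31% and 1.48% of all peaks, and in a blocked fit of the 6 libraries at 14 and 29 °C alone 555 and 33 were called, against 33.5% and 25.1%. DESeq2 called 71 higher and 6 lower, against 6.65% and 5.92% of all peaks. After each library was corrected for its own trend of counts with peak height, 5 were called higher and 3 lower, against 1.83% and 3.23%, and the median log2 fold change was 0.42.

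The direction was shared by the 4 arms. Median log2 fold changes (14 over 29 °C) were 0.74 on 2L, 0.68 on 3L, 0.74 on 3R and 0.63 on X, and the share of peaks above 0 ran from 78.2% on 3L to 95.4% on 3R. The pericentromeric median was 0.36 for 14 over 25 °C and -0.30 for 29 over 25 °C, 2 comparisons that share the 25 °C libraries. Those libraries overlapped with the others: the median peak of replicate 3 at 25 °C lay below those of replicates 1 and 3 at 29 °C, and replicates 1 and 2 at 25 °C lay above replicate 2 at 14 °C. With 1 library left out the 2 medians ran from 0.18 (without replicate 3 at 25 °C) to 0.60 (without replicate 2 at 14 °C) and from -0.50 (without replicate 3 at 25 °C) to -0.098 (without replicate 2 at 29 °C). None of the 909 peaks was called by edgeR in either of them, where 0% of all peaks were called higher at 14 than at 25 °C, 0.00582% lower, and 0% in either direction between 29 and 25 °C. For 14 against 25 °C, an unadjusted p under 0.05 was reached by 4 pericentromeric peaks on the higher side and 2 on the lower, against 2.10% and 3.24% of all peaks, and for 29 against 25 °C by 2 and 17, against 2.55% and 2.03%. DESeq2 called 1 pericentromeric peak, lower at 14 than at 25 °C, where 0.175% of all peaks were called higher and 0.25% lower, and 0 between 29 and 25 °C, where 0.122% and 0.0175% were called.

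Position relative to genes divided the pericentromeric set. Its 665 peaks away from gene starts had a median log2 fold change (14 over 29 °C) of 0.75, and 91.6% were above 0, while its 104 peaks at gene starts had a median of -0.03, with 48.1% above 0. The rest of the peaks showed the same order at lower values, with medians of 0.27 away from starts and -0.17 at starts. By the annotation at the peak centre, the 461 intergenic, 201 intronic and 45 coding exon peaks of the pericentromeric set had medians of 0.74, 0.73 and 0.73, and the 26 in 5′ UTRs had -0.20. In the rest, coding exon peaks had a median of 0.72, as high as in the pericentromeric set, whereas intergenic and intronic ones had -0.04 and -0.11. These classes also hold peaks at gene starts, which were 47.8% of the rest and 13.5% of the pericentromeric set.

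**Figure D2:**
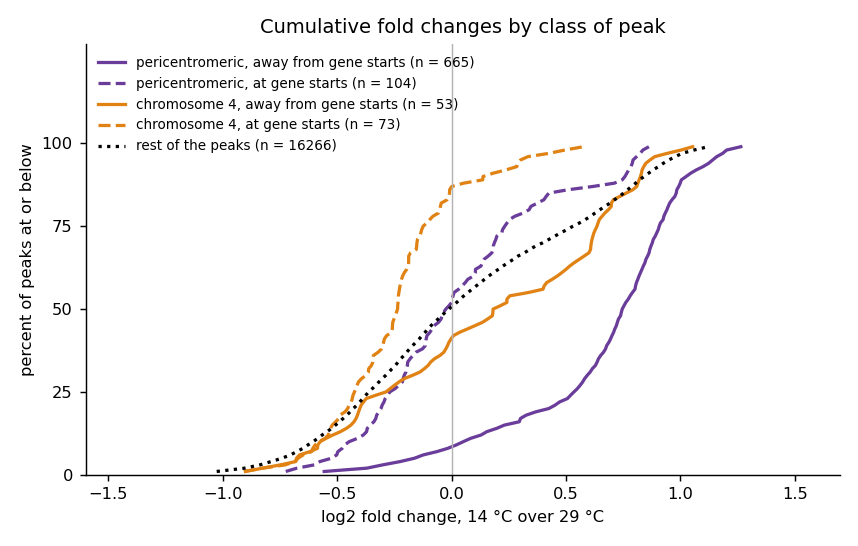
Cumulative percent of peaks (vertical axis) at or below each log2 fold change of 14 over 29 °C (horizontal axis), for pericentromeric peaks (purple) and chromosome 4 peaks (orange), each split into those away from gene starts (solid) and those at gene starts (dashed), and for the rest of the peaks (dotted). The curve of the 665 pericentromeric peaks away from gene starts lies to the right of the others, with a median of 0.75, while that of the 73 chromosome 4 peaks at gene starts has the lowest median, -0.24, and crosses the curve of the rest in the lower tail.

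GC content moved with the fold change too, and differently inside and outside the limits. In the rest, medians (log2, 14 over 29 °C) went from -0.13 for peaks of 40 to 45% GC to 0.75 for peaks over 55% GC. In the pericentromeric set the median was already 0.73 at 40 to 45% GC (150 peaks) and was 0.72 over 55% GC (122 peaks). Peaks under 35% GC had 0.14 in the pericentromeric set (128 peaks), -0.12 in the rest and -0.25 on chromosome 4 (54 peaks). After each library was corrected for its own trend with GC content the pericentromeric median was 0.47, and after correction for height and then GC content it was 0.33.

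**Figure D3:**
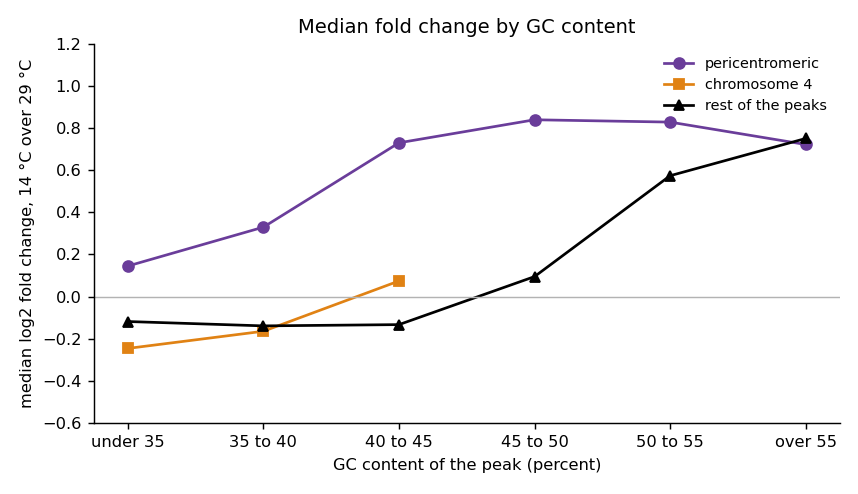
Median log2 fold change of 14 over 29 °C (vertical axis) of peaks in bins of GC content (horizontal axis, percent) for the pericentromeric set, chromosome 4 (only bins of 20 peaks or more) and the rest. At 40 to 45% GC the pericentromeric median was 0.73 and that of the rest -0.13, and over 55% GC they were 0.72 and 0.75.

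Height, unique sequence and annotated elements went with smaller differences in the pericentromeric medians than gene starts did. In 4 equal classes of all peaks by height, from the lowest to the highest, the pericentromeric medians were 0.81, 0.72, 0.48 and 0.22, while those of the rest were 0.35, 0.31, -0.11 and -0.44. Peaks whose 100-base stretches all occur once had a median of 0.71, and peaks with under 50% of such stretches had 0.69. Peaks that were at least 50% annotated transposable element had 0.67 (112 peaks) and those with no annotated element 0.72 (611 peaks). In the rest these 2 classes had 0.65 and -0.02. On 3R 4.57% of the pericentromeric peaks overlapped an annotated element, but the median peak was masked as repeat over 46.8% of its bases. Peaks with no annotated element are thus not all free of repeats. Among elements over at least 10 pericentromeric peaks, the LTR element gypsy8 (15 peaks) had a median of 0.68, R1A1, a relative of the R1 elements that insert in ribosomal DNA (11 peaks), 0.68, Cr1a (15 peaks) 0.77, the DNA transposon 1360 (30 peaks) 0.34 and INE-1 (18 peaks) 0.24.

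Near the limits used to choose the set, the fold change differed between arms. In 250 kb bins over the 4 arms, the median log2 fold change (14 over 29 °C) lay between -0.29 and 0.06 in the 5 bins from 2 Mb to 750 kb outside the limit. It was 0.30, 0.63 and 0.37 in the 3 bins of the last 750 kb outside, and between 0.54 and 0.87 in the 8 bins of the first 2 Mb inside, of which the last held 17 peaks. By arm, the 750 kb outside and the 750 kb inside the limit had medians of 0.66 and 0.74 on 2L, 0.36 and 0.57 on 3L, 0.059 and 0.76 on 3R and -0.017 and 0.20 on X. The higher medians outside the limit were thus those of 2L and 3L, while on 3R the value was near 0 up to the limit. Next to the limits, the first peak inside and the last outside had log2 fold changes of 0.96 and 0.96 on 2L, 0.91 and 0.83 on 3L, -0.31 and 0.15 on 3R and 0.30 and -0.46 on X. With each limit moved by 200 kb towards the centromere 650 peaks were left, with a median of 0.72, and with each moved 200 kb away 908 peaks had 0.69.

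**Figure D4:**
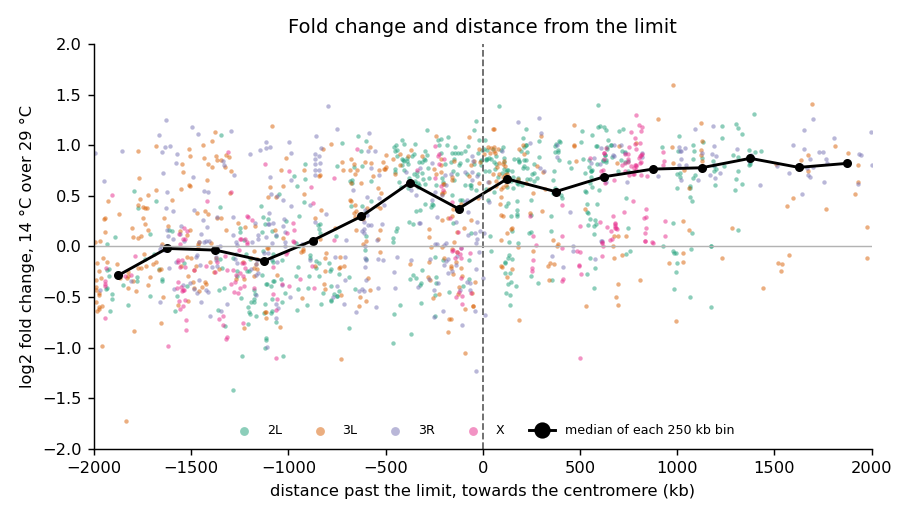
Log2 fold change of 14 over 29 °C (vertical axis) of single peaks (coloured by arm) against their distance past the limit of the pericentromeric set in kb, towards the centromere (horizontal axis), with the median of each 250 kb bin over the 4 arms (black). Over the 4 arms together the medians were 0.30 or higher from 750 kb outside the limit inwards, whereas on 3R the 750 kb outside had a median of 0.059.

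The 1 pericentromeric peak called, at 3R:4016521-4017021, lay between genes, 61168 bp from the nearest gene start, that of CG42402. Its normalised read counts (CPM, after TMM scaling) were 27.2, 18.4 and 26.1 at 14 °C, 21.3, 18.8 and 15.9 at 25 °C and 9.65, 8.48 and 12.9 at 29 °C, for replicates 1, 2 and 3. The 14 and 29 °C libraries did not overlap, and the 25 °C libraries lay above those at 29 °C and overlapped those at 14 °C. The log2 fold change (14 over 29 °C) was 1.23 ± 0.24 (SE; adjusted p = 0.0407 with edgeR). With 1 library left out the adjusted p ran from 0.00859 to 0.201, and the call was lost for 7 of the 9 libraries, all but replicate 2 at 14 °C and replicate 3 at 25 °C. It was 0.0754 after the correction for GC content, and 62.4% of its 100-base stretches occur once in the genome.

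Other non-overlapping pericentromeric peaks on the side of 14 °C missed the threshold by little. An intergenic peak at 2L:23314972-23315472, near Tim23, a gene of mitochondrial protein import, had 37.4, 34.9 and 37.4 CPM at 14 °C and 22.0, 17.2 and 20.5 at 29 °C. Its log2 fold change was 0.88 ± 0.19 (SE; adjusted p = 0.0530 with edgeR), with all 3 cool libraries within a narrow range. In the intron of Pzl, a relative of the Piezo mechanosensitive channel, a peak at 3R:3016660-3017160 had 70.1, 41.6 and 60.1 CPM at 14 °C against 25.5, 18.9 and 31.8 at 29 °C. The difference was 1.18 ± 0.28 on the log2 scale (SE; adjusted p = 0.0662 with edgeR). The remaining 2 of the first 5, at 3L:24929257-24929757 near CG40472 and 3L:26371500-26372000 at a start of CG42598, had log2 fold changes of 0.80 and 1.05.

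On the side of 29 °C the leading pericentromeric peaks were those of noncoding genes and of element copies. The CR33294 peak had 28.2, 28.0 and 30.5 CPM at 14 °C, 41.7, 45.3 and 48.0 at 25 °C and 41.7, 52.6 and 44.4 at 29 °C. Its 14 °C libraries lay below all 6 others, with a log2 fold change (14 over 29 °C) of -0.68 ± 0.16 (SE; adjusted p = 0.0592 with edgeR). At a start of the noncoding gene CR46425, at X:23101995-23102495, values were 26.5, 63.5 and 33.8 CPM at 14 °C and 82.2, 118 and 67.0 at 29 °C, with replicate 2 the highest at both temperatures. This gave -1.10 ± 0.33 (SE; adjusted p = 0.106 with edgeR). The other 3 were a peak in a copy of an F element in the intron of lovit (-0.82), one over HMS-Beagle and gypsy10 copies, nearest to the piRNA pathway gene AGO3 (-0.59), and one at a start of lncRNA:CR43967 (-0.73).

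The tallest pericentromeric peaks were over or near repeated loci, and none of the first 5 was higher in all 14 °C libraries. The Myo81F intron peak, which had the highest mean of all 909, had 1466, 1696 and 1475 CPM at 14 °C, 1689, 1586 and 1669 at 25 °C and 1775, 1806 and 2153 at 29 °C. All 14 °C libraries lay below all 29 °C ones, with a log2 fold change of -0.31 ± 0.23 (SE; adjusted p = 0.324 with edgeR), and the fitted value was 0.37 after the correction for peak height. The next 4 were on X, at ribosomal RNA pseudogenes or between genes, with mean values of 984 to 1301 CPM. The tallest of these, at X:23431238-23431738, had 2325, 805 and 1518 CPM at 14 °C and 1523, 585 and 1713 at 29 °C, so that replicate 2 was the lowest library at each of these temperatures.

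Ribosomal RNA genes and pseudogenes, the tandem array that forms the nucleolus, accounted for 15 peaks, all on X. Their mean heights ran from 28.8 to 1123 CPM with a median of 264 CPM. None separated the 14 from the 29 °C libraries, and their log2 fold changes lay between -0.10 and 0.30, with a median of 0.18. In the library totals they took 1.05, 0.420 and 0.774% of the counts at 14 °C and 0.675, 0.378 and 0.772% at 29 °C.

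**Figure D5:**
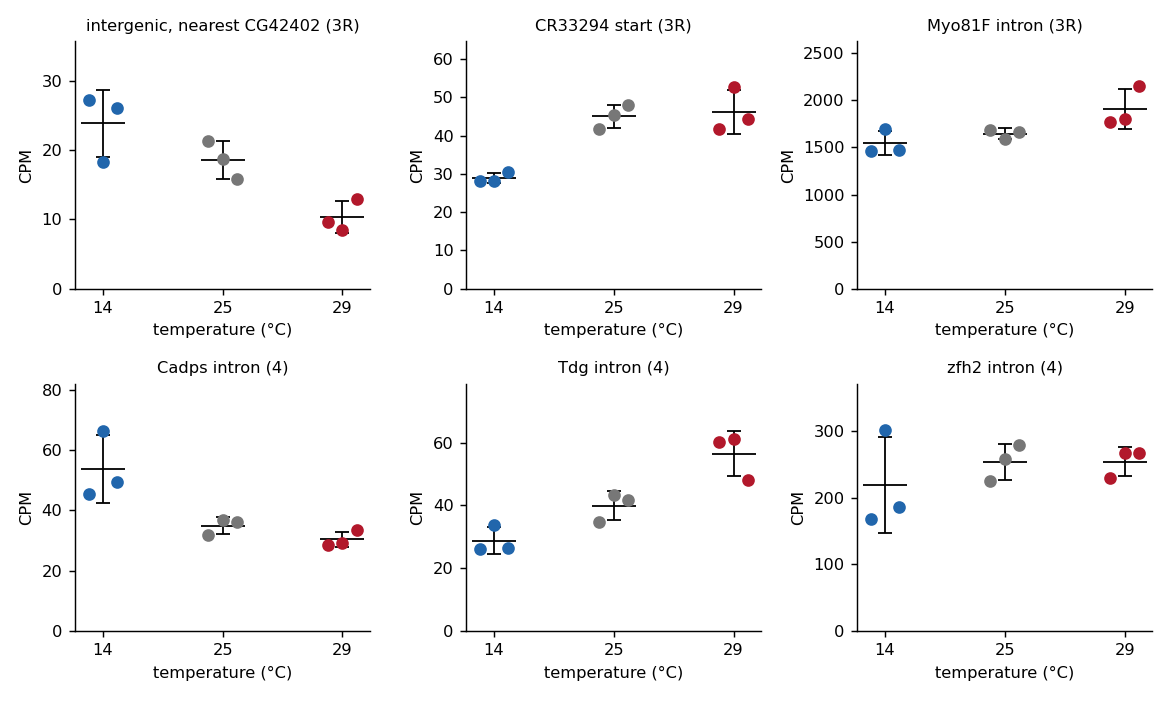
Normalised read counts (CPM, vertical axes, each starting at 0) in each library at 14, 25 and 29 °C (points), with the mean and SD of 3 libraries (bars), for the 6 peaks whose sequences are shown. The intergenic peak of 3R and the Cadps intron peak were higher in all 14 °C than in all 29 °C libraries, the CR33294, Myo81F and Tdg peaks were lower, and the zfh2 intron peak overlapped.

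Genes known to live in pericentromeric heterochromatin had start peaks that did not follow the bulk of the set. Of 24 listed names 23 were found in the annotation, and 12 had a peak within 500 bp of a start, 15 peaks in all, and edgeR called 0 of them in either direction between 14 and 29 °C, with 1 at an unadjusted p under 0.05, on the higher side, and 0 called by DESeq2. Of all peaks, 0.559% and 0.664% were called higher and lower by edgeR, so that 0 of 15 is near the background, 20.1% and 13.2% reached an unadjusted p under 0.05, and DESeq2 called 6.65% and 5.92%. The median log2 fold change of these 15 start peaks was -0.18, and 6 of 15 were above 0. All 104 pericentromeric peaks at gene starts had a median of -0.03, and the peaks at gene starts in the rest had -0.17. The RpL5 start peak, on 2L, had 71.8, 93.6 and 68.3 CPM at 14 °C and 58.2, 63.0 and 53.5 at 29 °C, without overlap, and a log2 fold change of 0.42 ± 0.19 (SE; adjusted p = 0.146 with edgeR). At Gpb5, which encodes a glycoprotein hormone subunit, the value was 0.75, at vtd, the cohesin subunit also known as Rad21, -0.37 and at RpL15 -0.37, with edgeR adjusted p between 0.172 and 0.174.

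Chromosome 4 leaned the other way. The median log2 fold change (14 over 29 °C) of its 126 peaks was -0.19, and 41 of them, or 32.5%, were above 0. With edgeR, 0 were called higher at 14 °C and 1 lower, against 0.559% and 0.664% of all peaks, and 13 and 12 had an unadjusted p under 0.05, where all peaks had 20.1% and 13.2%. Every 14 °C library lay above every 29 °C library in 11 peaks, or 8.73%, and below in 18, or 14.3%, against 12.8% and 15.1% of all peaks. The counts were 21 higher and 33 lower without replicate 2 at 14 °C, against 26.3% and 23.4% of all peaks, 2 and 3 with the replicate block, against 1.31% and 1.48%, and 6 and 6 with DESeq2, against 6.65% and 5.92%. With library sizes alone as the scaling, which moved the median of all peaks to 0.16, the chromosome 4 median was -0.05, still below it. After the correction for GC content it was -0.11, and after that for height and GC content it was -0.025, with 49.2% of its peaks above 0, against 49.2% of all peaks.

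As in the pericentromeric set, gene starts had the lower values on chromosome 4. Its 73 peaks at gene starts had a median of -0.24, with 10 above 0, and its 53 peaks away from starts had 0.18, with 31 above 0. The 28 peaks that were at least 50% annotated element had a median of 0.43, while the 91 peaks with none had -0.23. Against 25 °C, 0 chromosome 4 peaks were called by edgeR or DESeq2 at either temperature. For 14 against 25 °C an unadjusted p under 0.05 was reached by 3 on the higher side and 5 on the lower, against 2.10% and 3.24% of all peaks, and for 29 against 25 °C by 1 and 3, against 2.55% and 2.03%.

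The called peak lay in an intron of Tdg, the gene of the thymine DNA glycosylase, at 4:554838-555338 and 2766 bp from the nearest start. It had 26.2, 33.7 and 26.3 CPM at 14 °C, 34.6, 43.2 and 41.8 at 25 °C and 60.1, 61.2 and 48.1 at 29 °C. The 3 temperatures did not overlap, with the 25 °C libraries in the middle. The log2 fold change (14 over 29 °C) was -0.97 ± 0.18 (SE; adjusted p = 0.0336 with edgeR), and against 25 °C the edgeR adjusted p was 0.654 for 14 °C and 0.822 for 29 °C. With 1 library left out the adjusted p for 14 against 29 °C ran from 0.00859 to 0.170, and the call was lost for 6 of the 9 libraries, all but replicate 2 at 14 °C and replicates 1 and 3 at 25 °C.

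The lower side was led by 4 further peaks. An intronic peak of zfh2, a zinc finger homeodomain transcription factor gene, at 4:504997-505497, had 64.9, 88.2 and 70.7 CPM at 14 °C and 126, 150 and 123 at 29 °C. Its log2 fold change was -0.83 ± 0.20 (SE; adjusted p = 0.0678 with edgeR). The start peaks of Sox102F, a Sox family transcription factor gene, fd102C, a forkhead factor gene, and CaMKII, the calcium/calmodulin-dependent kinase II gene, had -0.93, -0.74 and -0.67, with edgeR adjusted p between 0.101 and 0.111. In all 3, replicate 2 was the highest of the 14 °C libraries.

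Of the 5 peaks that led the higher side, 3 lay in or next to Cadps near the tip of the chromosome. The Cadps intron peak at 4:1256561-1257061 lay wholly in copies of an F element and of 1360, in a gene for dense-core vesicle release. It had 45.5, 66.5 and 49.3 CPM at 14 °C, 31.7, 36.9 and 36.3 at 25 °C and 28.5, 29.3 and 33.4 at 29 °C, so that all 14 °C libraries were above all others. The log2 fold change was 0.83 ± 0.18 (SE; adjusted p = 0.0519 with edgeR), and with the replicate block the adjusted p was 0.0474. A peak in a coding exon of dati, a zinc finger transcription factor gene, had 33.9, 29.2 and 29.5 CPM at 14 °C and 17.4, 11.9 and 17.0 at 29 °C, or 1.01 ± 0.25 on the log2 scale (SE; adjusted p = 0.0707 with edgeR). The others were a second Cadps intron peak (0.67), a low intergenic peak over copies of HeT-A (1.10) and an intergenic peak over INE-1 and 1360 copies near lncRNA:CR44024 (0.85), which had 137 near-identical copies elsewhere.

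HeT-A, one of the retrotransposons that form fly telomeres, covered 11 chromosome 4 peaks, with a median log2 fold change of 0.49 and 8 above 0. From 1.2 Mb to the end of the chromosome there were 16 peaks, 14 of them at least 50% annotated element, with a median of 0.37 and 11 above 0. The 110 peaks before it had a median of -0.21, and 30 were above 0.

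Start peaks of chromosome 4 genes were described by function. Of 15 listed transcription factor genes, 13 had 19 start peaks, with a median log2 fold change (14 over 29 °C) of -0.26 and 3 above 0, among them a second zfh2 start peak at 0.32. The 8 peaks at 7 genes for synapses, channels and axon guidance had a median of -0.32. Among these genes were Ephrin (-0.60, a peak shared with the start of ND-49), CaMKII and PlexB (-0.34), a semaphorin receptor. At 2 TGF-β family ligand genes there were 3 peaks: mav had -0.49, and myo had -0.12 and -0.14. The 13 peaks at 11 genes for translation, trafficking and other general functions had a median of -0.41, with 4E-T, a translation repressor that binds eIF4E, at -0.68, gw, the GW182 protein of microRNA silencing, at -0.61 and Rad23 at -0.45. Over these 4 lists edgeR called 0 peaks in either direction, against 0.559% and 0.664% of all peaks. At an unadjusted p under 0.05 the counts on the lower side were 3, 3, 0 and 1, with 0 on the higher side, and DESeq2 called 1 higher and 3 lower among the transcription factors, 1 lower among the synapse genes and 0 in the other 2 lists. All peaks had 20.1% and 13.2% at an unadjusted p under 0.05 and 6.65% and 5.92% called by DESeq2, on the higher and the lower side. The peak at the shared start of Dyrk3 and Cadps (-0.44) is in both the synapse and the general list and is counted on the lower side of each.

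The log2 fold changes of the 5 tallest chromosome 4 peaks were below 0 in the fit reported, with overlap between libraries in all but 1 of them. The tallest, in an intron of zfh2 at 4:508404-508904, had 169, 302 and 187 CPM at 14 °C, 225, 258 and 279 at 25 °C and 229, 267 and 267 at 29 °C. Replicate 2 at 14 °C was the highest of the 9 libraries, and the other 2 cool libraries were the lowest, which gave a log2 fold change of -0.21 ± 0.27 (SE; adjusted p = 0.554 with edgeR). After the correction for peak height the value turned to 0.36, with an edgeR adjusted p of 0.0493. The next 4 had means of 132 to 201 CPM and log2 fold changes of -0.53, -0.43, -0.61 and -0.53. In that order they lay at starts of zfh2, of CG11076 and ATPsynbeta, of gw, and of Tdg, lncRNA:CR43958 and Pur-alpha. Of these, only the zfh2 start kept all 14 °C libraries below the 29 °C ones.

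The 14 Y chromosome peaks all had a near-identical copy elsewhere, so that the origin of the reads in them is uncertain. Their median mean count was 158, their heights ran from 4.89 to 256 CPM, and 9 of them had under 50% of 100-base stretches that occur once. The median log2 fold change (14 over 29 °C) was 0.76, with 11 above 0. With edgeR 0 were called, against 0.559% of all peaks called higher and 0.664% lower. An unadjusted p under 0.05 was reached by 6 on the higher side and 1 on the lower, against 20.1% and 13.2% of all peaks. DESeq2 called 1 of the 14 in each direction, against 6.65% and 5.92% of all peaks. None lay within 500 bp of a start of the 12 listed Y genes.

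The repeated Su(Ste) loci had 8 of the Y peaks nearest to them, between positions 955720 and 994617. Their log2 fold changes were all above 0, from 0.37 to 1.34, in the fit reported, but after the correction for GC content the peak at 994117 had -0.48, and after that for height and GC content it had -0.56 and the peak at 991575 had -0.13. They had 6 to 83 near-identical copies. The highest value was at Y:990626-991126, with 29.7, 13.7 and 19.7 CPM at 14 °C and 8.88, 8.07 and 7.55 at 29 °C, or 1.34 ± 0.34 on the log2 scale (SE; adjusted p = 0.0809 with edgeR). All its 14 °C libraries were above all its 29 °C libraries, and replicate 2 was the lowest of the 3. The tallest of the 8, at Y:956934-957434, had 234, 125 and 200 CPM at 14 °C and 118, 63.9 and 120 at 29 °C, without overlap, and a log2 fold change of 0.89 ± 0.34 (SE; adjusted p = 0.126 with edgeR).

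The other 6 Y peaks went both ways. Peaks in the introns of the dynein gene kl-5 and of Ppr-Y had 0.81 and 0.75, and of the 2 peaks nearest to FDY one had 0.75 and the other, at 6.79 CPM the second lowest on the Y, -0.87. The peak nearest to CR45946, at Y:287431-287931, had 5.69, 8.59 and 7.13 CPM at 14 °C against 14.5, 16.6 and 14.2 at 29 °C, without overlap, and a log2 fold change of -1.06 ± 0.27 (SE; adjusted p = 0.0779 with edgeR). The tallest Y peak, at the very end of the assembled chromosome with a listed start of -43 and an end of 457, had 142, 297 and 187 CPM at 14 °C and 239, 377 and 279 at 29 °C, which overlapped, and a log2 fold change of -0.51 ± 0.31 (SE; adjusted p = 0.237 with edgeR).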

How the data were processed

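Accessibility was measured by ATAC-Seq in 9 libraries of S2R+ cells, 3 at each of 14, 25 and 29 °C. Per the labels and the methods of the study, the authors trimmed reads with Trimmomatic 0.38, mapped them to dm6 with Bowtie2, used SAMtools and Picard to drop duplicates, mitochondrial reads and reads with several places, called peaks per library with MACS2, and built consensus peaks around their summits with DiffBind, in which reads were counted. The deposited counts are raw, and the other deposited table holds a signal, the counts less 1 divided by a size factor per library, from which only the authors' size factors were recovered. Removal of reads that map to several places lowers the counts of repeated sequence. Peaks without any 100-base stretch that occurs once still held counts, as did the peak at the end of the Y, with a mean of 256 CPM. The origin of such counts was not tested. The files do not state whether starts count from 0 or from 1.

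The quasi-likelihood test of edgeR 4.0.16 (R 4.3.3) was run on all 17175 peaks, with TMM scaling, robust dispersions and a model of temperature that leaves 6 residual degrees of freedom, and p-values were adjusted after Benjamini and Hochberg over the table (threshold 0.05). The fit was tested on simulated data without the differences in spread between libraries described above, so that test does not bear on them. Values per library are CPM with TMM factors. DESeq2 1.42.0 was an alternative. The study's removal of peaks of low reproducibility was not repeated. Gene starts and elements are those of the Ensembl 115 annotation, copies were sought with BLAST 2.17.0+, and sequences and repeat masking are those of RefSeq for the same assembly.

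Deviations of libraries with the same replicate number from their temperature means correlated at 0.63, 0.83 and 0.54 between 14 and 29 °C. In that comparison the numbers were taken as pairs for the ratios within replicates and the blocked fits, but the fit reported had no block. The numbers did not pair with 25 °C, where replicates 2 and 3 at 14 °C had -0.45 and -0.74. Differing numbers also correlated, at up to 0.56 between 14 and 29 °C, which is above the 0.54 of replicate number 3. Replicate 2 at 14 °C and replicate 3 at 25 °C correlated at 0.82. The members and the gene lists were chosen with earlier results of these data known. Named peaks are those called, in each set and direction the 5 of smallest p among peaks whose 14 and 29 °C libraries did not overlap, the 5 tallest, all Y peaks, up to 4 per gene list and those next to the limits.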

Additional observations from a re-analysis of the deposited data

How the results depend on the processing

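Between 14 and 29 °C, the number of chromosome 4 peaks called (1 in the fit reported) was 4 with library sizes alone, 6 with offsets against peak height, 4 with offsets against GC content and 7 with both offsets, 5 with the replicate block, 12 and 14 with the block and offsets against height or GC content, 65 with the block in the 6 libraries alone, 0 in those 6 without a block, 4 after a filter on low counts and 12 with DESeq2. At adjusted p under 0.01 and 0.1 it was 0 and 6, and with 1 library left out it ran from 0 to 54, the latter without replicate 2 at 14 °C. In the same order, the pericentromeric counts (1 in the fit reported) were 4, 8, 8 and 17, then 12, 25 and 124, then 588, 0, 3 and 77, with 0 and 20 at the other thresholds, and with 1 library left out they ran from 0 to 476. The Y counts (0 in the fit reported) were 1 with height offsets, 1 with both offsets, 1 with the block, 2 with the block and either offset, 13 with the block in 6 libraries, 2 with DESeq2, 2 at adjusted p under 0.1 and 0 to 9 with 1 library left out. Of all 17175 peaks, 229 were called higher and 187 lower with library sizes alone, and 315 and 555 with height offsets. GC offsets gave 272 and 313, and both offsets 433 and 689. The block gave 225 and 254, with height offsets 524 and 776 and with GC offsets 1293 and 1357. The block in 6 libraries gave 5748 and 4310, those 6 unblocked 0 and 6, and DESeq2 1142 and 1017. The filter on low counts left 12884 peaks, with 221 and 226. Without replicate 2 at 14 °C it was 4517 and 4025. The pericentromeric count was 0 with only unique peaks or with the limits moved 200 kb towards the centromere. For 14 against 25 °C, the block with height offsets called 2 chromosome 4 peaks and 1 pericentromeric peak. Over all peaks this fit called 33 higher and 45 lower. DESeq2 called 1 pericentromeric peak, where 30 of all peaks were called higher and 43 lower. Both calls made were lost in the 6 libraries alone without a block, and the pericentromeric one also with GC offsets, both offsets and the block with GC offsets (adjusted p 0.0504 to 0.127), and it did not enter the fit with the filter on low counts. With RLE size factors or the authors' own scaling both calls between 14 and 29 °C and the direction of each median of that comparison were kept, but with the authors' scaling the chromosome 4 median for 29 over 25 °C went from 0.026 to -0.049 and that of all peaks for 14 over 25 °C from 0.036 to -0.032. The cause of these differences was not tested.

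With 1 library left out, the median log2 fold change on chromosome 4 ran from -0.36 to -0.085, and the pericentromeric share at 14 over that at 29 °C from 1.24 to 1.67, the extremes of the share being those without replicates 1 and 2 at 14 °C. With peaks away from gene starts alone the chromosome 4 median was 0.18. The pericentromeric and Y medians for 14 over 29 °C kept their sign in every fit run, from 0.33 to 0.95 and from 0.35 to 1.00. They moved by less than the spread between replicates, a pooled SD of the library medians of 0.43 and 0.465. That spread is wide beside the medians of 0.71 and 0.76 in the fit reported, so this is a loose measure. Without replicate 2 at 29 °C the medians were 0.46 and 0.41. The block changed the direction of no median for 14 over 29 °C. Both offsets together, the unique-peak and gene-start subsets and the block with GC offsets were added after the data were seen.

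A window of 250 bp for gene starts gave 50.8% of chromosome 4 and 11.8% of pericentromeric peaks. Depth limits the low peaks, which have the larger counting errors. The removal of reads that map to several places limits the repeated peaks, as all on the Y are.

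Some named peaks that were not called in the fit reported changed sign. With height offsets, the block with height offsets, and both offsets, in that order, the tallest zfh2 intron peak had 0.36 (adjusted p 0.0493, past the threshold), 0.36 and 0.36, ATPsynbeta 0.072, 0.075 and 0.24, Myo81F 0.37, 0.35 and 0.15 and the peak at the end of the Y 0.061, 0.064 and 0.12. With both offsets the zfh2 start had 0.043, gw 0.033, the Pur-alpha start 0.022, mav 0.0099 and the Y peak at 991575 -0.13. The Y peak at 994117 had -0.48 with GC offsets, -0.56 with both and -0.49 with the block and GC offsets, and the first myo peak 0.012 with library sizes alone, 0.0070 with height offsets and 0.25 with both. Leaving out 1 library turned 4 of the tallest X peaks, whose values ran from -0.13 to 0.59 at 23431238, -0.15 to 0.25 at 23432750, -0.15 to 0.22 in 18SrRNA-Psi:CR41602 and -0.029 to 0.43 at 28SrRNA-Psi:CR40741.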

Other observations

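Genes for heterochromatin proteins lie mostly outside the regions described. Of 26 listed, among them those of HP1a, the histone H3 lysine 9 methyltransferases Su(var)3-9 and G9a, and POF, 23 had a peak within 500 bp of a start, 27 peaks in all. Between 14 and 29 °C 0 of the 27 were called by edgeR and 0 by DESeq2, and 0 reached an unadjusted p under 0.05. Of all peaks, 0.559% and 0.664% were called higher and lower by edgeR and 6.65% and 5.92% by DESeq2, and 20.1% and 13.2% had an unadjusted p under 0.05. Their median log2 fold change (14 over 29 °C) was -0.21, with 5 of 27 above 0, near the -0.17 of all peaks at gene starts outside the 3 sets. The 13 start peaks of the 9 hemocyte markers that had one showed a median of -0.50, with 2 called lower at 14 °C by edgeR and 0 higher, against the same 0.664% and 0.559% of all peaks.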
